A study of Mus musculus with 6 samples.

Results

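The 96 genes described here carry symbols of nuclear genes for oxidative phosphorylation, out of 16171 gene rows in the count table. A row was taken where its symbol began with Nduf, Uqcr, Atp5, Cox4, Cox5, Cox6, Cox7 or Cox8, or was Sdha, Sdhb, Sdhc, Sdhd, Cyc1 or Cycs. A pseudogene row, Ndufab1-ps, was left out. The rule used symbols only and no measured value. It gave 40 genes of complex I, 4 of complex II, 9 of complex III, 17 of complex IV, 17 of complex V, the cytochrome c gene Cycs, and 8 assembly factors of complex I named Ndufaf. Ndufa4 and its relative Ndufa4l2, named for complex I, were counted with complex IV, where the Ndufa4 protein is known to reside.

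Oxidative phosphorylation makes ATP at the inner mitochondrial membrane. Complex I takes electrons from NADH and complex II takes them from succinate. Ubiquinone carries them to complex III, and cytochrome c carries them on to complex IV, which reduces oxygen. The proton gradient built on the way drives complex V, the ATP synthase. In macrophages, stimulation with lipopolysaccharide (LPS, a bacterial cell wall component) is known to move energy metabolism away from respiration and towards glycolysis.

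RNA sequencing was done on Raw264.7 cells, a mouse macrophage line transformed by Abelson leukaemia virus, whose genotype label is WT. The 3 THCaP libraries came from cells on titanium with a bionic coating of calcium phosphate nanowires. The 3 TH libraries, the study's controls, came from cells on nanowires of titanate that alkaline heat treatment had formed. All 6 libraries share the same LPS treatment, in which cells sat on the surface for 12 h, received 1 µg/mL LPS for 2 h and were collected after another 1 d, so no library is from resting cells. No label states that the 3 libraries of a surface were separate cultures, and p-values therefore measure only the spread between these libraries, which may be technical.

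The libraries held 28000099 to 30317108 counts each. All 10 macrophage markers (Ptprc, Spi1, Csf1r, Itgam, Adgre1, Cd68, Cd14, Lyz2, Fcgr1 and Tyrobp) were measured, with summed levels of 3320 to 3550 CPM (counts divided by library size and scaled) in THCaP libraries and 3170 to 3710 CPM in TH libraries. Marker sums of other cell types stayed at or below 4.06 CPM in THCaP libraries and 5.65 CPM in TH libraries, the highest being the endothelial list. In bulk RNA, fewer cells of a type and less RNA per cell cannot be told apart. The 13 subunits encoded by mitochondrial DNA were not analysed here.

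Of the 96 genes, 94 had enough counts to be tested. Cox6b2, a testis form of a complex IV subunit, had 1, 3 and 0 counts in THCaP libraries and 0, 0 and 1 in TH libraries. Ndufa4l2 had 1, 1 and 2 counts in THCaP libraries and 3, 1 and 1 in TH libraries. Both were at or under 3 counts in each library, so no fold change was computed for them.

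The oxidative phosphorylation genes differed little between the surfaces. Of the 94 tested, 6 were higher and 1 was lower in THCaP at an adjusted p under 0.05 in edgeR's quasi-likelihood test, which is 7.45% of them. Over all 11480 tested genes, 23.6% were called, 11.6% as higher and 12% as lower. The 3 THCaP libraries lay wholly above the 3 TH libraries for 15 of the 94 genes and wholly below for 5, which is 21.3%, against 43.4% of all tested genes. The median standard error (SE) of the log2 fold change was 0.101 for the 94 genes and 0.109 for all tested genes.

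Small differences leaned one way. The log2 fold change, THCaP over TH, was positive for 70 of the 94 genes, or 74.5%, against 50.7% of all tested genes. Its median was 0.11, against 0.01 for all tested genes, with quartiles of -0.0044 and 0.226. The 95% confidence interval lay within 0.5 of 0 on the log2 scale for 70 of the 94 genes, against 51.8% of all tested genes. At an unadjusted p under 0.05, 24 of the 94 genes differed, against 39.1% of all tested genes.

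**Figure D1:**
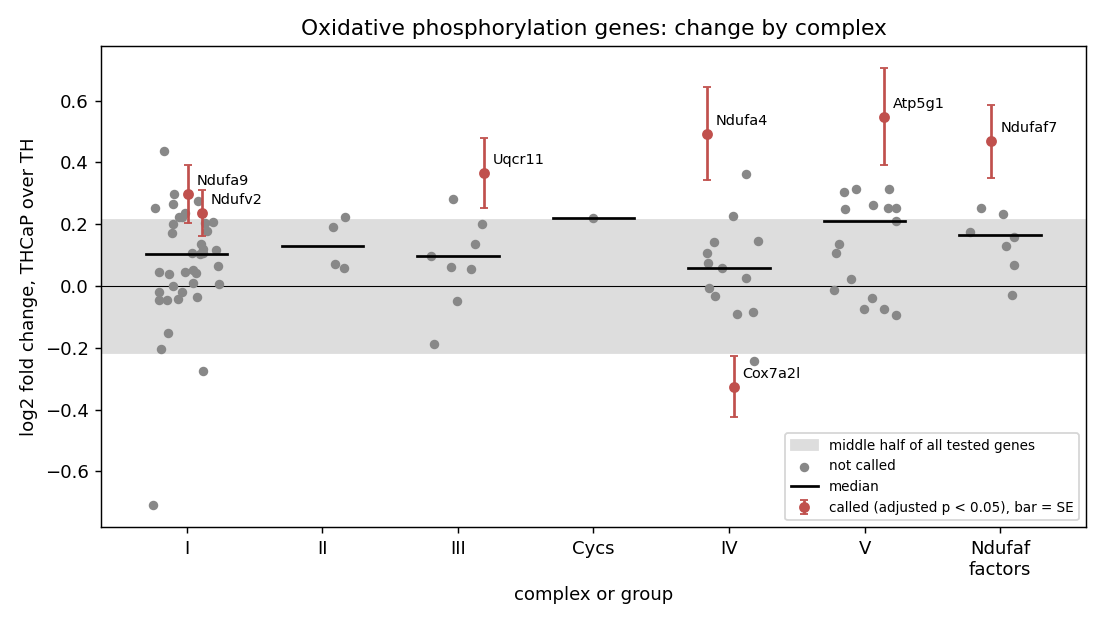
Log2 fold change, THCaP over TH, of each tested gene (points) by complex, with lines at the medians, a grey band between the quartiles of all tested genes, and called genes in red with bars of 1 SE. Of the 94 points 70 lie above 0, 6 genes are called higher and Cox7a2l of complex IV is called lower.

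These counts depended on single libraries and on the scaling. Leaving out TH replicate 2, TH replicate 3 or THCaP replicate 1 left 0 of the 94 genes called, and leaving out THCaP replicate 2 left 1. The share of all tested genes called fell too, from 23.6% to 6.91, 6.77, 6.53 and 14.4% in that order. Without TH replicate 1, 5 were called, of which 3 are among the 7, with 21.2% of all tested genes called. Each of the 7 called genes lost its call under 3 to 9 of the 18 alternatives run for it. Leaving out THCaP replicate 3 gave 27 higher and 1 lower, which is 29.8% of the 94 against 36% of all tested genes. Without THCaP replicate 2 the median log2 fold change of the 94 was 0.04. Scaling by library totals replaced the TMM factors, which equalise the bulk of genes, and gave 11 higher and 0 lower. Of all tested genes 25.8% were then called, with a median log2 fold change of 0.06 in place of 0.01. A correction for a gene length trend gave 15 higher and 1 lower, with 29.3% of all genes called. The 94 genes are short, with a median length of 818 bases against 3452 bases over all tested genes.

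A pattern by library ran through the whole set. The level was highest in THCaP replicate 2 among the 6 libraries for 69 of the 94 genes, or 73.4%, against 33.1% of all tested genes. Within the THCaP libraries, replicate 2 was the highest for 80 genes, or 85.1%, against 42.4% of all tested genes. Replicate 3 was the lowest THCaP library for 74, or 78.7%, against 41.1%. Within the TH libraries, replicate 1 was the highest for 81 genes, or 86.2%, against 43% of all tested genes. The median level of the set, relative to each gene's own mean over the 6 libraries, was 0.04, 0.20 and -0.06 on the log2 scale in THCaP libraries, and 0.05, -0.10 and -0.11 in TH libraries. So THCaP replicate 3 stood below TH replicate 1, and the medians of the 2 groups overlapped. The same medians over all tested genes stayed between -0.0050 and 0.0056 in each library.

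**Figure D2:**
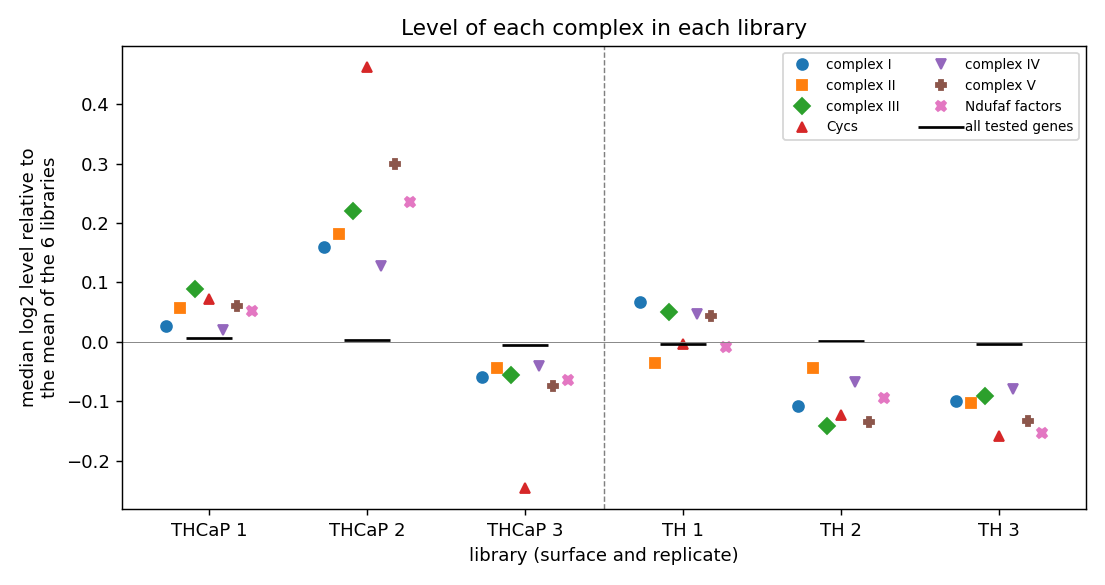
Median log2 level of the genes of each complex (symbols) and of all tested genes (black dashes) in each library, relative to each gene's mean over the 6 libraries. THCaP replicate 2 is at the top for every symbol, from 0.13 in complex IV to 0.46 for Cycs, and THCaP replicate 3 lies below TH replicate 1 for all 7 symbols.

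Per gene length, the subunits were among the well expressed genes of these cells. Levels are given here as RPKM, the CPM on TMM-scaled library sizes divided by gene length in kilobases, and the tested members had a median of 98.5 RPKM against 10.3 RPKM for all tested genes. The median level was 68.5 RPKM in complex I, 129.9 in complex II, 121 in complex III, 245 in complex IV and 170 in complex V. The Ndufaf assembly factors had a median of 10.5 RPKM. The ranges of the 5 complexes overlapped, and complex IV held both very abundant genes and minor tissue forms, down to 1.49 RPKM for Cox4i2. Levels between genes depend on the lengths that the deposited values imply, such as 3153 bases for Cox5a and 569 bases for Cox5b. Whether these lengths match the transcripts made in these cells was not checked.

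**Figure D3:**
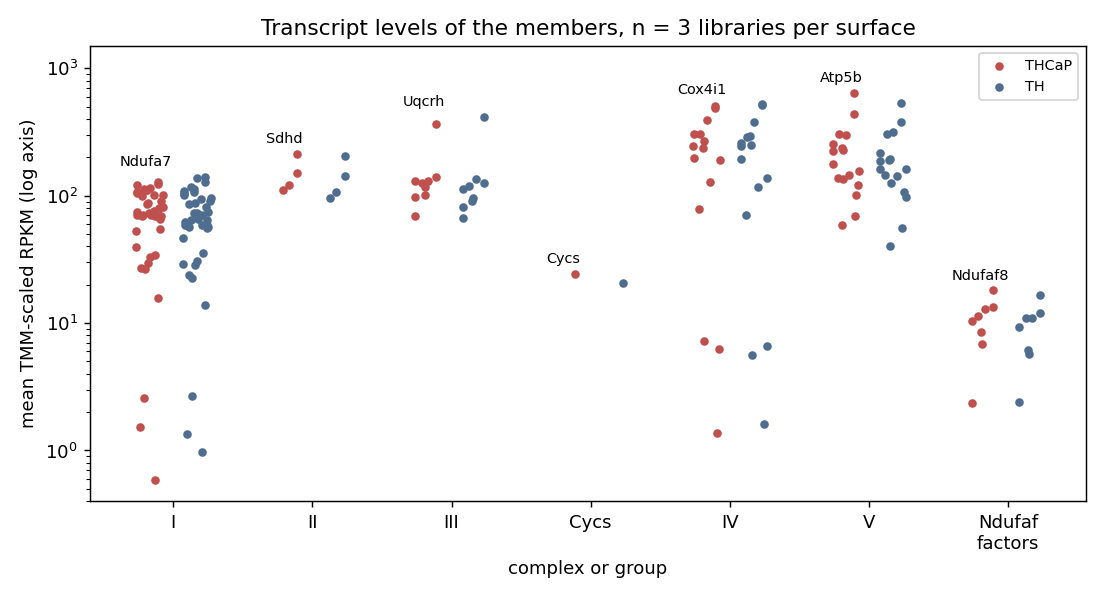
Mean RPKM of each tested gene over 3 libraries, on a log axis, by complex, with THCaP in red and TH in blue and the most abundant gene of each complex named. The highest point is Atp5b, at 643 RPKM in THCaP and 536 RPKM in TH, and the Ndufaf factors lie below most subunits.

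Summed over the 94 tested genes, the level was 11752, 12957 and 11132 RPKM in THCaP libraries and 12034, 10837 and 10956 RPKM in TH libraries. The groups overlapped, with a ratio of means of 1.06. The sum of complex V differed most among the complexes, at 3734 ± 382 RPKM in THCaP and 3362 ± 177 RPKM in TH (SD, n = 3 each), a ratio of 1.11. The ratio was 1.05 for complex I, 1.08 for complex II, 1.03 for complex III and 1.02 for complex IV. Without THCaP replicate 2 the log2 ratio was -0.01 for complex III and -0.02 for complex IV, a change of sign in sums that did not differ beyond their spread.

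Complex I, the NADH dehydrogenase, had 2 of 40 genes higher and 0 lower in THCaP, or 5% called against 23.6% of all tested genes. The median log2 fold change of complex I was 0.10. Its 7 nuclear core subunits carry the flavin and the iron-sulphur clusters, and 1 of these 7 was called, Ndufv2. Ndufv2, the core subunit that holds an iron-sulphur cluster beside the flavin subunit, had 69.4, 72.1 and 65.8 RPKM in THCaP libraries and 59.6, 58.6 and 57.7 RPKM in TH libraries. The groups did not overlap and each was tight. The log2 fold change was 0.24 ± 0.07 (SE, n = 3 each, edgeR adjusted p = 0.0443). Ndufv2 spans chr17:66078795-66101559 (GRCm38.p6) and overlaps Ankrd12 and Gm23264 there. Whether the counting used strand is not stated in the labels, and whether reads of these genes were mixed was not checked.

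No other core subunit passed the test. Ndufs1, the largest core subunit, had 68.1, 78.5 and 64.2 RPKM in THCaP libraries and 60.4, 56.8 and 59.9 RPKM in TH libraries, with a log2 fold change of 0.25 and an edgeR adjusted p of 0.0689. Its groups did not overlap, and THCaP replicate 2 was the highest library. Ndufv1, Ndufs3, Ndufs7 and Ndufs8 had log2 fold changes of 0.12, -0.04, 0.04 and 0.00.

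Among the 33 accessory genes of complex I, which surround the core, 1 was called, or 3.03% against 23.6% of all tested genes. Ndufa9, known to steady the arm near the ubiquinone site, had 71.0, 76.4 and 60.5 RPKM in THCaP libraries and 58.1, 55.7 and 55.4 RPKM in TH libraries. Its log2 fold change was 0.30 ± 0.09 (SE, edgeR adjusted p = 0.0475), and it overlaps 1700018A23Rik. The lowest THCaP library exceeded the highest TH library by little. Ndufa5, another accessory subunit, had the largest log2 fold change of the complex and widely spread THCaP libraries. Its levels were 37.9, 52.1 and 28.2 RPKM in THCaP libraries and 31.9, 27.0 and 28.3 RPKM in TH libraries, a log2 fold change of 0.44 ± 0.19 that did not pass (edgeR adjusted p = 0.124).

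A pair of accessory subunits lay wholly below TH without passing the test. Ndufa6 had 116, 108 and 121 RPKM in THCaP libraries and 162, 125 and 131 RPKM in TH libraries (log2 fold change -0.27, edgeR adjusted p = 0.0873). Ndufa7 had 123, 124 and 121 RPKM in THCaP libraries and 152, 129 and 144 RPKM in TH libraries (log2 fold change -0.20, edgeR adjusted p = 0.103). In both genes the THCaP libraries were close to each other and TH replicate 1 was the highest. Ndufb1, an accessory subunit of the membrane arm and one of the most abundant genes of the complex, had 127, 144 and 114 RPKM in THCaP libraries and 138, 129.7 and 115 RPKM in TH libraries, with full overlap and a log2 fold change of 0.01.

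Apart from the copies and the pseudogene described next, the remaining accessory genes of complex I ran from a log2 fold change of -0.15 for Ndufv3 to 0.30 for Ndufb7, and none passed. Ndufb7, of the membrane arm, came closest, with 88.6, 102 and 83.0 RPKM in THCaP libraries and 80.8, 70.7 and 71.0 RPKM in TH libraries (edgeR adjusted p = 0.059). Its groups did not overlap, as was also so for the accessory genes Ndufb8 and Ndufs5, with log2 fold changes of 0.21 and 0.27.

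The least expressed rows of complex I were copies or a pseudogene. Ndufb4b and Ndufb4c are copies of Ndufb4, and Ndufs6b is annotated in RefSeq as a pseudogene although its symbol does not end in -ps. Ndufb4c, with the lowest log2 fold change of all 94 genes at -0.71 ± 0.48, rested on 11, 10 and 4 counts in THCaP libraries and 10, 18 and 12 counts in TH libraries, and it lies within the bounds of Mroh5. Its edgeR adjusted p was 0.297. Reads of near-identical copies may be split or lost in the counting, so these rows are uncertain.

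Complex II, succinate dehydrogenase, had 0 of 4 genes called by edgeR and by limma-voom, 1 at an unadjusted p under 0.05, and 1 by DESeq2. Over all tested genes edgeR called 23.6% and DESeq2 29.6%. Sdha, the flavoprotein that oxidises succinate, had 110.2, 120.1 and 103 RPKM in THCaP libraries and 96.1, 92.9 and 96.5 RPKM in TH libraries. The groups did not overlap, and the log2 fold change of 0.22 ± 0.08 had an edgeR adjusted p of 0.072. Sdhd, a membrane anchor, had 214, 229 and 195 RPKM in THCaP libraries and 206, 204 and 204 RPKM in TH libraries, with a log2 fold change of 0.06. The TH values of Sdhd lie inside the THCaP range. Sdhb, the iron-sulphur subunit, and Sdhc, the other anchor, had log2 fold changes of 0.19 and 0.07, with edgeR adjusted p of 0.173 and 0.524.

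Complex III, the cytochrome bc1 complex, had 1 of 9 genes higher and 0 lower, or 11.1% called against 23.6% of all tested genes. The median log2 fold change of complex III was 0.10. Uqcr11, its smallest subunit, had 114, 133 and 106 RPKM in THCaP libraries and 102, 88.7 and 83.2 RPKM in TH libraries. The groups did not overlap, and the log2 fold change was 0.37 ± 0.11 (SE, edgeR adjusted p = 0.0427). Uqcr11 lies at chr10:80402997-80406821 and overlaps no other RefSeq gene. Cyc1, cytochrome c1, which hands electrons to cytochrome c, had 97.3, 113 and 85.1 RPKM in THCaP libraries and 86.6, 77.3 and 79.1 RPKM in TH libraries, with overlap and an edgeR adjusted p of 0.0828.

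Uqcrh, the hinge subunit at the cytochrome c1 side and the most abundant gene of the complex, had 357, 358 and 376 RPKM in THCaP libraries and 462, 382 and 399 RPKM in TH libraries. All 3 THCaP libraries were below all 3 TH libraries, but the log2 fold change of -0.19 ± 0.09 did not pass (edgeR adjusted p = 0.148). Uqcrfs1, the Rieske iron-sulphur protein, had 124, 131 and 135 RPKM in THCaP libraries and 141, 131 and 132 RPKM in TH libraries, which overlap. Uqcr10, a small subunit, had a log2 fold change of 0.14. The core proteins Uqcrc1 and Uqcrc2 had 0.20 and 0.06, and the small subunits Uqcrb and Uqcrq had 0.10 and 0.05, each with overlapping groups.

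Cycs, the somatic cytochrome c gene, had 23.3, 30.6 and 18.7 RPKM in THCaP libraries and 22.1, 20.4 and 19.9 RPKM in TH libraries. THCaP replicate 2 was the highest and THCaP replicate 3 the lowest of all 6. Its log2 fold change of 0.22 ± 0.15 did not pass (edgeR adjusted p = 0.311) and was 0.02 without THCaP replicate 2. RefSeq lists 3 pseudogenes that carry the Cycs symbol, so some of its reads may be lost or misplaced.

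Complex IV, cytochrome c oxidase, had 1 of 15 tested genes higher and 1 lower, or 13.3% called against 23.6% of all tested genes. Its median log2 fold change was 0.06. Ndufa4, a subunit first assigned to complex I, had 185, 242 and 151 RPKM in THCaP libraries and 148, 137 and 125 RPKM in TH libraries. The lowest THCaP library was just above the highest TH library. The log2 fold change was 0.49 ± 0.15 (SE, edgeR adjusted p = 0.0426), the largest of complex IV.

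Cox7a2l, known for joining complex III and complex IV into supercomplexes, was the only one of the 94 genes called lower. It had 236, 210 and 265 RPKM in THCaP libraries and 317, 279 and 295 RPKM in TH libraries. The groups did not overlap, and THCaP replicate 2, the highest library for most other genes of the set, was the lowest for Cox7a2l. The log2 fold change was -0.33 ± 0.10 (SE, edgeR adjusted p = 0.0412). This call was lost when any library but THCaP replicate 3 was left out and in the limma fits on the deposited FPKM values. It was also lost under scaling by library totals, where the log2 fold change was -0.27.

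The bulk subunits of complex IV were close between the surfaces. Cox4i1, the largest nuclear subunit, had 496, 537 and 485 RPKM in THCaP libraries and 564, 489 and 499.7 RPKM in TH libraries. Cox8a, a small membrane subunit, had 483, 500.0 and 494 RPKM in THCaP libraries and 546, 496 and 522 RPKM in TH libraries. Cox6a1, the widely expressed form of its subunit, had 395, 409 and 382 RPKM in THCaP libraries and 391, 372 and 376 RPKM in TH libraries. The groups overlapped for all 3 genes, with log2 fold changes of -0.03, -0.08 and 0.06, and the sign for Cox4i1 flipped under scaling by library totals (0.02). The 7 other subunits in general use ran from a log2 fold change of -0.01 for Cox7c to 0.23 for Cox5b, and none passed.

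Tissue forms of complex IV subunits were minor here. By RPKM, Cox4i2, the lung form, made up 0.269 ± 0.026% of the Cox4 pair in THCaP and 0.316 ± 0.101% in TH (SD, n = 3 each). Cox6a2, the heart and muscle form, made up 1.55 ± 0.29% of its pair in THCaP and 1.72 ± 0.22% in TH. Cox7a1, also a heart and muscle form, made up 3.47 ± 0.48% of its pair with Cox7a2 in THCaP and 2.82 ± 0.40% in TH. None of these shares differed by a two-sided exact permutation test (p = 0.6, 0.6 and 0.2), which with 3 against 3 cannot go below 0.1. Cox4i2 rested on 26 to 42 counts a library and overlaps Bcl2l1 and Gm32057, and Cox6a2 overlaps Itgad. Whether reads of these genes were mixed was not checked.

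Complex V, the ATP synthase, had 1 of 17 genes higher and 0 lower in THCaP, or 5.88% called against 23.6% of all tested genes. It had the highest median log2 fold change of the 5 complexes, 0.21. At an unadjusted p under 0.05, 8 of the 17 differed, against 39.1% of all tested genes. Atp5b, the catalytic beta subunit and the most abundant gene of the set, had 633, 732 and 563 RPKM in THCaP libraries and 533, 542 and 533 RPKM in TH libraries. The groups did not overlap, and the log2 fold change of 0.26 ± 0.10 had an edgeR adjusted p of 0.0767. Atp5a1, the alpha subunit, had 427, 481 and 400.3 RPKM in THCaP libraries and 393, 369 and 369 RPKM in TH libraries, with an edgeR adjusted p of 0.104.

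The central stalk links the catalytic head to the membrane ring. Atp5d, the delta subunit of the rotor stalk, had 144, 138 and 128 RPKM in THCaP libraries and 153, 144 and 141 RPKM in TH libraries, with overlap and a log2 fold change of -0.09. Atp5e, the epsilon subunit beside it, had 299.6, 313 and 289.5 RPKM in THCaP libraries and 346, 301 and 304 RPKM in TH libraries, with overlap. Atp5c1, the gamma shaft, had 158, 157 and 156 RPKM in THCaP libraries and 164, 159.3 and 159.8 RPKM in TH libraries, close but without overlap (log2 fold change -0.04). None of these 3 stalk genes passed the test.

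The peripheral stalk holds the catalytic head still. Its genes Atp5pb, Atp5j, Atp5o and Atp5h had log2 fold changes of 0.25, 0.30, 0.25 and 0.11, each with overlapping groups and none past the threshold. Atp5pb, subunit b, had 257, 289 and 223 RPKM in THCaP libraries and 229, 206 and 211 RPKM in TH libraries (edgeR adjusted p = 0.0986). Here TH replicate 1 lay above THCaP replicate 3. The small membrane subunits Atp5k, Atp5j2, Atp5l, Atp5md and Atp5mpl had log2 fold changes of 0.31, 0.25, 0.14, 0.02 and -0.08, and none passed.

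The c subunit, which forms the membrane ring that turns as protons pass, is encoded by 3 genes. Atp5g1, Atp5g2 and Atp5g3 differ in their import sequences but give the same mature protein. Stretches upstream of the transcript start that RefSeq's promoter window uses are shown because the 3 genes supply 1 protein from separate loci. The sequences are from RefSeq on GRCm38.p6, on the minus strand and read 5′ to 3′, with matches to the motifs searched in capitals. Atp5g1 is chr11:96075665-96075881, Atp5g2 is chr15:102671070-102671099 and Atp5g3 is chr2:73911327-73911576.
Atp5g1: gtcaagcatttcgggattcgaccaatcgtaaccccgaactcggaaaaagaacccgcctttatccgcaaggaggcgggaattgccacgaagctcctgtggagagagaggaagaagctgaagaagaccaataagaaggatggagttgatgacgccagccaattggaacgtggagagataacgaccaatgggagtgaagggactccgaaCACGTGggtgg
Atp5g2: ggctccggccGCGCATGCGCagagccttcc
Atp5g3: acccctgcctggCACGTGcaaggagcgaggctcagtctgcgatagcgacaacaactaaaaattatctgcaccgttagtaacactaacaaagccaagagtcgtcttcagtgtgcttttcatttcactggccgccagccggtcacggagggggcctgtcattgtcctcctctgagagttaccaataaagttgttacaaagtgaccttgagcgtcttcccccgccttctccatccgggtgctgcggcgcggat
For Atp5g2 only the 30 bases around the match are shown. Of the 250 bases before its start, 80 lie in exons of the gene in another annotation, GENCODE vM21, so the stretch was cut. Whether the Atp5g2 match lies in those exons was not recorded. For Atp5g1 the 33 bases next to the start are not shown. The start used is not always the outermost one, since the RefSeq gene begins 63 bases further upstream for Atp5g1 and 1138 bases further upstream for Atp5g3. The Atp5g1 match and the whole Atp5g3 stretch therefore lie inside the gene's bounds. Positions count back from the start used. The capitals mark an E-box (CACGTG) that begins at -44 in Atp5g1 and at -238 in Atp5g3. In Atp5g2 they mark overlapping matches to the NRF1 core (CATGCGC), 1 on each strand, that begin at -42 and -39.

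Only Atp5g1 of the trio was called. It had 57.5, 74.1 and 46.0 RPKM in THCaP libraries and 44.7, 40.1 and 36.6 RPKM in TH libraries. The lowest THCaP library was just above the highest TH library, and the log2 fold change of 0.55 ± 0.16 was the highest of the 94 genes (SE, edgeR adjusted p = 0.0348). Atp5g2 had 304, 286 and 322 RPKM in THCaP libraries and 323, 296 and 302 RPKM in TH libraries, with overlap and a log2 fold change of -0.01. Atp5g3 had 241, 277 and 199 RPKM in THCaP libraries and 219.6, 181 and 177 RPKM in TH libraries, with overlap and a log2 fold change of 0.31 (edgeR adjusted p = 0.104).

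Of the 3 genes, Atp5g2 had the highest level in each library. Atp5g1 made up 9.54, 11.6 and 8.10% of the summed RPKM in THCaP libraries and 7.61, 7.76 and 7.10% in TH libraries. Atp5g2 made up 50.5, 44.9 and 56.8% in THCaP libraries and 55.0, 57.3 and 58.6% in TH libraries. The share of Atp5g1 did not overlap between the groups and that of Atp5g2 did. By a two-sided exact permutation test p was 0.1 for Atp5g1, the smallest that 3 against 3 allows, and 0.2 for Atp5g2 and for Atp5g3, with 0.52 for each after adjustment over 13 shares of paralogues. The sum of the trio was 602 ± 35.0 RPKM in THCaP and 539.9 ± 41.3 RPKM in TH (SD, n = 3 each), a ratio of 1.115 (two-sided exact permutation p = 0.2).

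**Figure D4:**
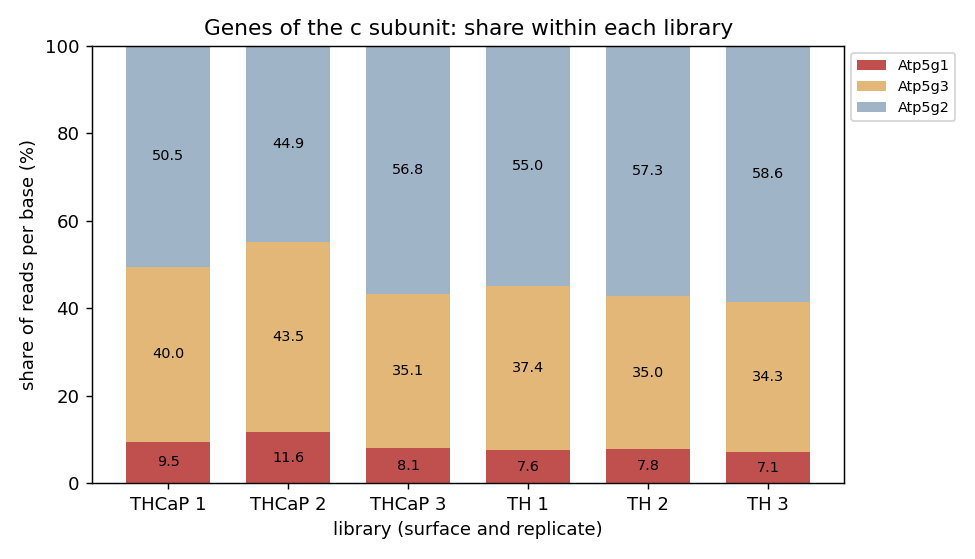
Share of Atp5g1, Atp5g3 and Atp5g2 in their summed RPKM, in percent (stacked bars), in each library. Atp5g1 takes 8.10 to 11.6% in THCaP libraries and 7.10 to 7.76% in TH libraries, and Atp5g2 is the largest part in all 6.

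Across the set, 77 genes had a promoter window in RefSeq, 82 windows in all, each of 300 bases from 250 before to 50 after a start. The NRF1 core (CATGCGC, both strands), a motif of a factor known to drive respiratory genes, was in 16 of the 82 windows, or 19.5%, against 7.01% of the windows of tested genes and 3.91% of all 32851 windows. The ETS core CCGGAAG was in 23.2%, against 18.2% for tested genes, the YY1 core AAGATGG in 14.6%, against 7.25%, and the E-box in 8.54%, against 9.95%. Among the 7 called genes each motif was in 1 of 7 windows.

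Of the 8 Ndufaf assembly factors, which build complex I and are not part of the finished enzyme, 1 was higher and 0 were lower. That is 12.5%, against 23.6% of all tested genes, and the median log2 fold change was 0.17. Ndufaf7, a methyltransferase needed to assemble complex I, had 8.74, 8.82 and 7.88 RPKM in THCaP libraries and 6.92, 6.03 and 5.42 RPKM in TH libraries. The groups were well apart, and the log2 fold change of 0.47 ± 0.12 had the lowest adjusted p of the 94 genes (SE, edgeR adjusted p = 0.0224). Its call held without THCaP replicate 2, without THCaP replicate 3 and without TH replicate 1, with edgeR adjusted p from 0.00945 to 0.0426, and ended without any of the other 3 libraries, where it was 0.0828 to 0.0964.

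Most other Ndufaf factors had small positive values. Ndufaf3, an early assembly factor, had 12.3, 13.7 and 12.8 RPKM in THCaP libraries and 11.5, 11.2 and 10.3 RPKM in TH libraries, with no overlap and an edgeR adjusted p of 0.118. Ndufaf8 had 17.9, 20.7 and 15.6 RPKM in THCaP libraries and 18.4, 15.7 and 15.4 RPKM in TH libraries, with overlap. Ndufaf6 had 2.32, 2.45 and 2.24 RPKM in THCaP libraries and 2.41, 2.60 and 2.15 RPKM in TH libraries, a log2 fold change of -0.03 that was 0.02 under scaling by library totals. Ndufaf1, Ndufaf2, Ndufaf4 and Ndufaf5 had log2 fold changes of 0.07, 0.25, 0.16 and 0.17.

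**Figure D5:**
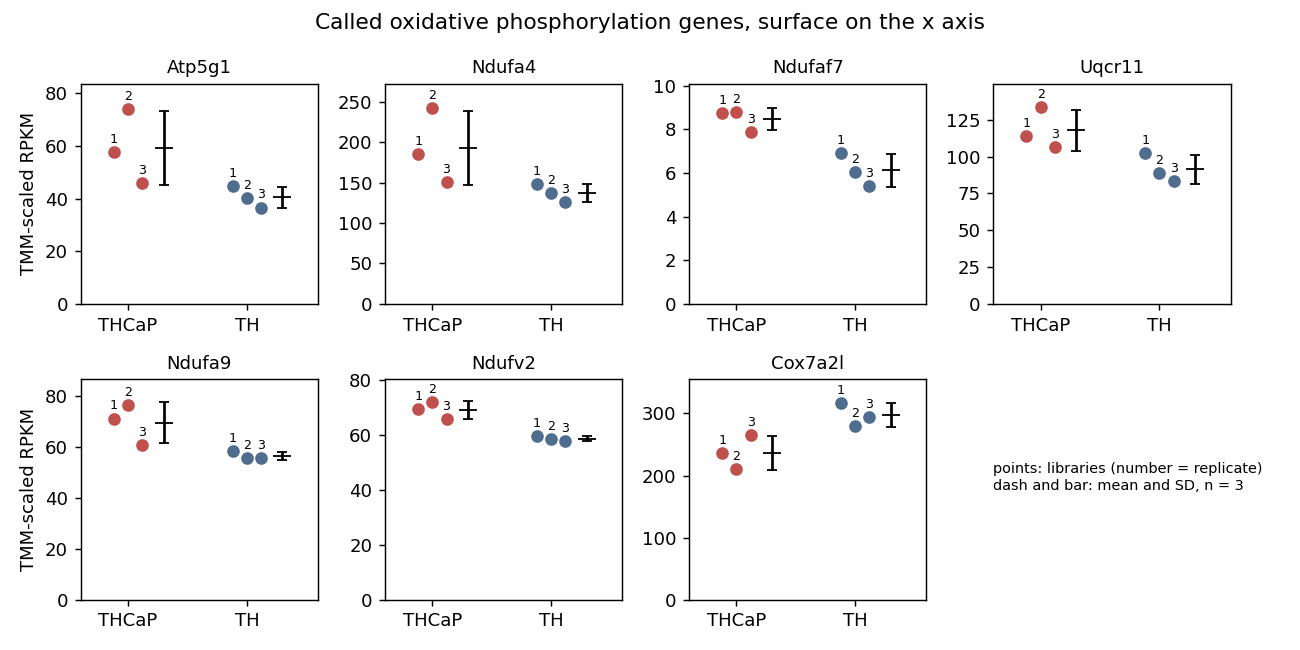
RPKM in each library of the 7 genes called, with 3 THCaP and 3 TH points, numbered by replicate, and the group mean ± SD as dash and bar. Ndufaf7 and Ndufv2 have the clearest gaps between the groups, and Cox7a2l is the one that is lower in THCaP.

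Genes that serve the complexes without being members were read from lists of known functions. Of 11 other assembly factors of complex I, 1 was higher and 0 lower, and of 10 factors of complexes II and III, 2 were higher and 1 lower. Among all tested genes 23.6% were called. Sdhaf1, which helps insert iron-sulphur clusters into complex II, had 14.6, 16.2 and 18.2 CPM in THCaP libraries and 22.4, 22.8 and 21.2 CPM in TH libraries. All 3 THCaP libraries were below TH, with a log2 fold change of -0.44 ± 0.11 (edgeR adjusted p = 0.0219). Uqcc1 and Bcs1l, both needed to build complex III, had log2 fold changes of 0.47 and 0.28 (edgeR adjusted p = 0.0481 and 0.041). Tmem186, of the complex I list, had one of 0.35 (edgeR adjusted p = 0.0387).

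Of 23 assembly factors of complex IV, 3 were higher and 0 lower, against 23.6% called among all tested genes. The 3 were Cmc2, Taco1 and Lrpprc, with log2 fold changes of 0.42, 0.41 and 0.34. Lrpprc, which stabilises mitochondrial messenger RNA, had 125, 141 and 113 CPM in THCaP libraries and 99.5, 99.4 and 101 CPM in TH libraries (edgeR adjusted p = 0.0296). The 3 THCaP libraries were spread and all lay above the tight TH libraries. Of 4 assembly factors of complex V, edgeR called 0, with 1 at an unadjusted p under 0.05 (Fmc1), and DESeq2 called 1. The median log2 fold change was 0.00 for the complex I factors, 0.09 for those of complexes II and III, 0.08 for those of complex IV and 0.19 for those of complex V.

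Of 19 genes for ubiquinone synthesis and for other dehydrogenases that reduce it, 4 were higher, 3 were lower and 12 did not pass, against 23.6% called among all tested genes, and the median log2 fold change was 0.10. Without TH replicate 2 or TH replicate 3, 1 was called, with 6.91 and 6.77% of all tested genes called in that order. Pdss1, which starts the ubiquinone side chain, had 10.2, 14.9 and 7.02 CPM in THCaP libraries and 5.48, 5.30 and 3.80 CPM in TH libraries, a log2 fold change of 1.13 ± 0.26 (edgeR adjusted p = 0.0173). Dhodh, which passes electrons from pyrimidine synthesis to ubiquinone, had 20.8, 27.3 and 19.0 CPM in THCaP libraries and 15.9, 14.1 and 13.7 CPM in TH libraries, a log2 fold change of 0.62 (edgeR adjusted p = 0.0175). Neither gene's groups overlapped.

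The lower ubiquinone genes included Coq10b, which binds ubiquinone. It had 14.3, 16.8 and 12.7 CPM in THCaP libraries and 24.0, 21.5 and 23.3 CPM in TH libraries, a log2 fold change of -0.65 ± 0.12 (edgeR adjusted p = 0.00835). Its call held under all 18 alternatives run for it. Coq8a, a kinase-like protein of the synthesis complex, had 18.9, 12.4 and 28.4 CPM in THCaP libraries and 34.7, 40.9 and 39.3 CPM in TH libraries, a log2 fold change of -0.94 (edgeR adjusted p = 0.0223). Coq4 and Coq7 were also higher and Coq9 lower, and these 3 are named after their values were seen.

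A further list held 17 tested genes for mitochondrial transcription, mitochondrial DNA replication and their nuclear regulators. Of these, 1 was higher and 0 lower, against 23.6% called among all tested genes. Polg, the mitochondrial DNA polymerase, had 83.3, 87.7 and 77.5 CPM in THCaP libraries and 69.1, 63.4 and 70.2 CPM in TH libraries (log2 fold change 0.29, edgeR adjusted p = 0.032). Of 15 carriers and membrane genes, 3 were higher and 0 lower, against the same 23.6%. These were Phb, a prohibitin of the inner membrane, Tomm40, the import channel of the outer membrane, and Immt, an organiser of cristae, with log2 fold changes of 0.57, 0.52 and 0.32 (edgeR adjusted p = 0.0243, 0.0306 and 0.0389). For Phb, Tomm40 and Immt, THCaP replicate 2 was the highest library, as it was for most oxidative phosphorylation genes. Apart from Coq10b, the called genes of these lists with values or fold changes above each lost their call under 3 or more of 18 alternatives, Coq4, Coq7 and Coq9 not being counted.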

How the data were processed

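The deposited counts are whole reads per gene symbol, and the authors' deposited FPKM values were made from them. For the 11923 genes with enough counts, FPKM and counts gave a gene length whole within 0.01 bases for 100% of genes. The submitters' processing notes name HTSeq, HISAT2 and fastp, and the build mm10. Versions, gene annotation and strand setting were not given in these sources. FPKM served alternatives and gene lengths only. Library totals were 28000099 to 30317108 counts, which puts the 3-count floor at no more than 0.107 CPM (counting error only).

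Counts were fitted in R 4.3.3 with edgeR 4.0.16 (filterByExpr with minimum count 10 and total 15, TMM, robust quasi-likelihood F test, Benjamini-Hochberg over all 11480 tested genes). SE is the absolute log2 fold change over the square root of F. The script was tested on simulated data. Alternatives used DESeq2 1.42.0, limma 3.58.1 with voom or log2(FPKM + pseudocount), other scalings, filters and omitted libraries. Shared replicate numbers were not taken as pairs. Members and lists were chosen with earlier results of these data known. Named were all called members, the 3 most abundant and the extreme members of each complex, and up to 4 called genes of each other list. Sequences and positions came from RefSeq, GRCm38.p6, and 96 members matched by symbol. The result for 1 member is not reported here.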

Additional observations from a re-analysis of the deposited data

How the results depend on the processing

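The direction of the median log2 fold change of the 94 genes and of each complex stayed positive under every alternative run, and without single libraries it ranged from 0.04 to 0.15 for the 94 genes, 0.03 to 0.14 for complex I, 0.07 to 0.19 for II, 0.03 to 0.20 for III, 0.02 to 0.09 for IV, 0.11 to 0.27 for V and 0.07 to 0.23 for the Ndufaf factors. The log2 ratio of summed levels ranged from 0.01 to 0.13, 0.06 to 0.17, -0.01 to 0.10, -0.02 to 0.08, 0.07 to 0.22 and 0.10 to 0.25 in that order of complexes. Counts of calls moved more. Without single libraries, 291 to 2145 of all genes were higher and 465 to 2020 lower, and 0 to 27 members were higher and 0 to 1 lower. Called members then ran from 0 to 9 in complex I, 0 to 2 in II, 0 to 3 in III, 0 to 3 in IV, 0 to 9 in V and 0 to 1 among the Ndufaf factors. In the other lists they ran from 0 to 1 for complex I factors and 0 to 2 for those of II and III. They ran from 0 to 5 for IV factors, 0 to 1 for V factors and 1 to 10 for ubiquinone genes. The ranges were 0 to 3 for mitochondrial transcription and DNA replication and 0 to 6 for carriers. The cause was not tested, though omitting a library leaves 5 in the fit.

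Members called higher and lower were 11 and 0 under library totals, 10 and 1 with DESeq2, 12 and 0 on log2(FPKM + 1) and on log2(FPKM + 0.1), 2 and 0 on log2(FPKM + 1) without a filter, 15 and 1 with length offsets, and 14 and 1 with length offsets and the replicate block. The shares of all tested genes called were 25.8, 29.6, 27.2, 27, 8.49, 29.3 and 28.8% in that order. Without a filter log2(FPKM + 1) called 766 genes higher and 528 lower. Complex I calls were 4 (library totals, DESeq2), 1 (voom, no filter, replicate block, unfiltered FPKM), 5 (both FPKM pseudocounts, length offsets with block) and 6 (length offsets). Complex II calls were 1 (library totals, DESeq2, both pseudocounts). Complex III calls were 2 (library totals) and 0 (unfiltered FPKM). Complex IV calls were 1 (library totals, voom, both pseudocounts, Ndufa4 counted with complex I) and 0 (unfiltered FPKM). Complex V calls were 2 (library totals, DESeq2, both pseudocounts), 0 (unfiltered FPKM) and 5 (length offsets, with and without block). Ndufaf calls were 2 (both pseudocounts). In the lists, complex I factors had 0 (block, with and without length offsets) and 2 (both pseudocounts), those of II and III 1 (unfiltered FPKM), those of IV 1 (unfiltered FPKM) and 6 (length offsets), those of V 1 (DESeq2, block, length offsets with and without block), ubiquinone genes 2 (unfiltered FPKM) and carriers 6 (library totals, both pseudocounts) and 1 (unfiltered FPKM).

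The replicate block gave 5 members higher and 1 lower, with 25.1% of all tested genes called. The numbers were not taken to pair the libraries, since no label says that they mark a shared culture, day or batch. Same-numbered libraries deviated from their group means with correlations of -0.04, -0.11 and 0.10. With 3 libraries a group these values cannot decide whether the libraries are paired. Log2 fold changes near 0 changed sign for Ndufaf6 (0.023 under library totals, 0.018 on FPKM + 1 with or without a filter, 0.0255 on FPKM + 0.1, and -0.098 to 0.0339 without single libraries), Ndufb1 (-0.079 to 0.0892 without single libraries), Uqcrfs1 (0.00267 under library totals, 0.002865 on FPKM + 1 with or without a filter, 0.00289 on FPKM + 0.1) and Cox4i1 (0.0206, 0.0225 and 0.0225 in that order, and -0.0761 to 0.032 without single libraries). Differences in paralogue shares ranged, without single libraries, from 1.33 to 3.10 percentage points for Atp5g1, -9.26 to -3.32 for Atp5g2, 1.98 to 6.16 for Atp5g3, -0.099 to 0.00136 for Cox4i2, -0.274 to 0.00298 for Cox6a2 and -0.916 to -0.445 for Cox7a2. Atp5s, Atp5sl and Atp5if1 have no row under those symbols, so counting them with complex V changed nothing.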
